A study of Mus musculus with 16 samples.

Results

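Guanylate-binding proteins (GBPs) and immunity-related GTPases (IRGs) were described in double-positive thymocytes of NOD mice that differ in Nfkbid. The 10 genes Gbp2, Gbp3, Gbp5, Gbp6, Gbp7, Igtp, Irgm1, Irgm2, Iigp1 and Tgtp1 were chosen by family name from 46517 gene identifiers, and all 10 were among the 14933 genes that passed the filter on low counts. They were selected from a family list of 30 genes in the annotation with their differences between the groups already known. No threshold was applied. Differences of these 10 genes between the groups are therefore given as a description, with no test, and the 20 other family genes are reported beside them.

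GBPs and IRGs are large GTPases that cells make after interferon binds its receptor. Janus kinases at the receptor then activate transcription factors. Those activated by interferon-gamma bind the gamma-activated site (GAS). Type I interferons act mainly through a complex that contains IRF9 and binds the interferon-stimulated response element (ISRE), a site that other IRF family factors such as IRF1 also read. The GTPases coat vacuoles that hold parasites or bacteria and help to break them open. Among the IRGs, Irgm1, Irgm2 and Igtp (Irgm3) are regulators that sit on the cell's own membranes and keep the effector IRGs, such as Iigp1 and Tgtp1, inactive there. They are best known in macrophages and fibroblasts.

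Live CD4+CD8+ thymocytes were sorted for sequencing of total RNA from 16 mice aged 6 to 7 weeks, 1 library per mouse. All mice were NOD-AI4, that is NOD mice whose T cells carry a transgenic receptor cloned from the autoreactive CD8 clone AI4. There were 6 NOD-AI4 controls (3 males, 3 females), 5 NOD-AI4-Nfkbid-/- mice (4 males, 1 female) and 5 NOD-AI4-60A mice that carry an Nfkbid transgene (3 males, 2 females). Nfkbid encodes IκBNS, a nuclear IκB protein that modulates NF-κB target genes. The libraries held 17955743 to 35637813 estimated counts each. The labels give neither the promoter of the transgene nor the structure of the knockout allele.

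Nfkbid was at 32.7 ± 2.87 CPM (counts per 1000000 on scaled library sizes; SD, n = 6) in controls and 208.1 ± 72.1 CPM (n = 5) in transgenic libraries. It was 31.6 ± 4.30 CPM (n = 5) in the libraries labelled knockout, which therefore did not show a lower level of the targeted gene and are called knockout-labelled here (edgeR log2 difference 0.07, SE 0.15, adjusted p = 0.780). The transgenic level was higher by 2.67 on the log2 scale than in controls (SE 0.15, edgeR adjusted p = 9.8e-08). All controls had mouse identifiers of 1 series and all other mice of another, so genotype and identifier series cannot be told apart wherever the controls are one side of a comparison. The transgenic and knockout-labelled mice lie inside 1 series. Control replicate 2 and transgenic replicates 3 and 5, all males, stood apart in transcripts of the type I interferon response: Ifit1 was at 67.1, 145.4 and 66.2 CPM in them, while the other 13 libraries had 1.82 to 17.9 CPM. Differences of the 10 members between the groups are given with and without these 3 libraries. Most values of other genes, those of the type I response among them, are given for all 16 libraries only. Double-positive thymocyte markers (10 genes, Cd4, Cd8a and Rag1 among them) summed to 5791 to 8583 CPM in every library.

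Windows upstream of 4 member genes are shown first because they hold the letters by which interferon-activated factors are known to bind, and because 3 of them carry both elements at the same spacing. Sequences are from the RefSeq table of the mouse assembly GRCm38.p6 (C57BL/6J, not NOD), in the sense of the gene, and no printed base lies in an annotated exon. Capitals mark GAS matches (TTCNNNGAA) and ISRE matches (GAAA, any 2 bases, GAAA, which reads TTTC, any 2 bases, TTTC on the other strand). Igtp is at chr11:58199491-58199551 (plus strand), Irgm2 at chr11:58214882-58214942 (plus), Tgtp1 at chr11:48992294-48992354 (minus), its near-copy Tgtp2 at chr11:49064253-49064313 (minus) and Gbp7 at chr3:142530210-142530312 (plus).
Igtp: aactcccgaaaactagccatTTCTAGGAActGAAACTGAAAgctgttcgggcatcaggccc
Irgm2: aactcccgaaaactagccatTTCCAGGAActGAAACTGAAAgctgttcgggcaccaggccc
Tgtp1: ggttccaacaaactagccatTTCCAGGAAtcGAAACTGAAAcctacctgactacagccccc
Tgtp2: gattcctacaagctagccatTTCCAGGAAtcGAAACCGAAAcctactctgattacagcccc
Gbp7: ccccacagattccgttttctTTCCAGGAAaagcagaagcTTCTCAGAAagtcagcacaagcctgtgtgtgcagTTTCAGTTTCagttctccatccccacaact

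In Igtp, Irgm2 and Tgtp1 the GAS match was followed by an ISRE match that began 11 bases downstream of the start of the first. The GAS began at -45, -75 and -88 from the gene start in these 3 genes, and the ISRE at -34, -64 and -77. The 61-base windows of Igtp and Irgm2 were identical at 59 positions, and those of Tgtp1 and Tgtp2 at 47. The table held promoters of 8 of the 10 members; Gbp6 and Iigp1 were not in it. In the 250 bases before the start, searched on both strands, all 8 held an ISRE match, against 3.46% of the 27025 genes of the table. The ISRE matches of Gbp2 and Irgm1 lie in annotated exons of these genes (GENCODE M21). A GAS match was found in 5 of the 8 (Gbp5, Gbp7, Igtp, Irgm2 and Tgtp1), against 8.13% of all genes. The GAS pattern is a palindrome and matches at the same place on both strands, and no printed GAS and ISRE match overlapped. A kappaB consensus was found in 1 of the 8 (Gbp5), against 8.23% of all genes. Of 10 other family genes in the table, 4 held an ISRE match (Gbp2b, Tgtp2, Gm12250 and Gm12185). These matches describe letters and not bound sites.

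**Figure D1:**
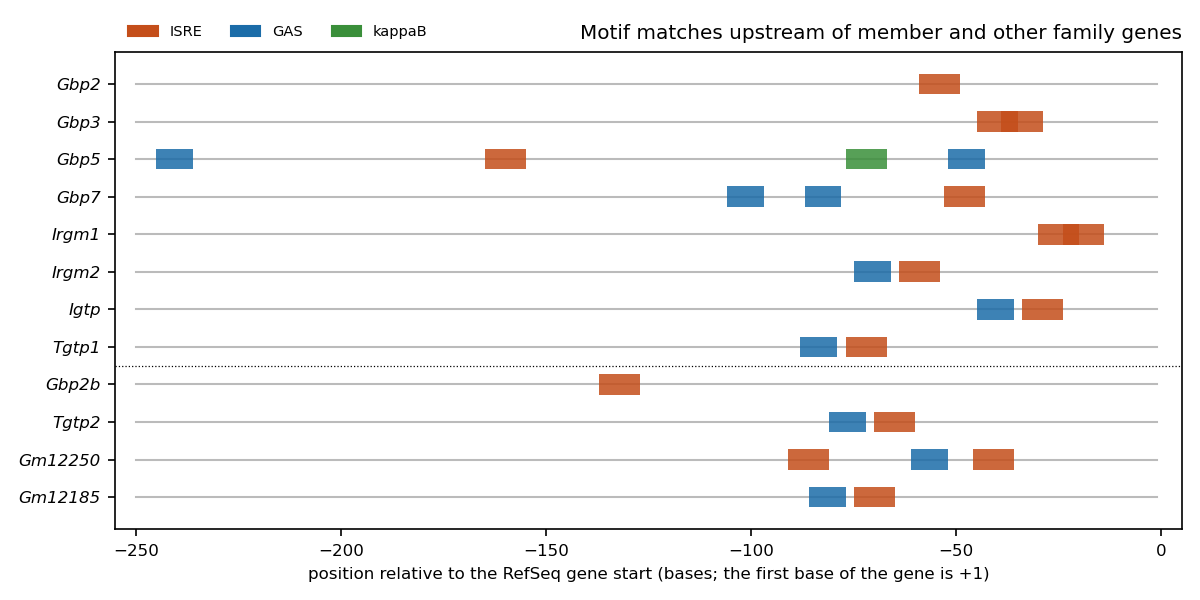
Positions of ISRE (orange), GAS (blue) and kappaB (green) matches in the 250 bases upstream of the RefSeq gene start (horizontal axis, bases) for the 8 members in the table and, under the dotted line, 4 other family genes. Igtp, Irgm2 and Tgtp1 each show a GAS followed by an ISRE, and all 8 members show at least 1 ISRE.

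The members lie in clusters. Gbp5 (142493978 to 142522344), Gbp7 (142530342 to 142550149), Gbp3 (142560026 to 142573209) and Gbp2 (142620602 to 142638008) follow each other on the plus strand of chromosome 3 (GRCm38, GENCODE M21), and Gbp6 (105270702 to 105293698, minus strand) lies in a second GBP cluster on chromosome 5. Irgm1 (48861968 to 48871683) and Tgtp1 (48985327 to 48994172) are on the minus strand of chromosome 11. Igtp (58199556 to 58207591) and Irgm2 (58199618 to 58222782) are further along the same chromosome on the plus strand, and their annotated spans overlap. Iigp1 is on chromosome 18. Sequence is shared within the clusters: 81.2% of the 50-base windows of Tgtp1 transcripts also occur in another gene, mainly Tgtp2, and 70.7% of those of Gbp6, mainly in Gm43302. The share was 12.7% for Gbp7, 11.8% for Igtp and at most 7.77% for the other 6 members. The deposited counts could split reads between such copies, so Tgtp1 and Gbp6 are uncertain as single genes and are also given as sums below.

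Compared per length, in the deposited TPM (transcripts scaled to the library and to gene length), Gbp7 and Igtp were the most abundant members of the control libraries, with medians of 31.0 and 30.1 TPM. Gbp2 (19.5), Irgm1 (18.8) and Gbp6 (16.2) followed, then Tgtp1 (6.14), Irgm2 (5.53), Gbp3 (2.27) and Gbp5 (1.70), and Iigp1 was lowest at 0.367 TPM. Every pair of neighbours in this order overlapped in range over the 6 controls, for example Gbp7 with Igtp (27.6 to 60.0 and 28.8 to 80.2 TPM). Igtp with Gbp2, Gbp6 with Tgtp1, Irgm2 with Gbp3 and Gbp5 with Iigp1 overlapped only through control replicate 2, described below. The knockout-labelled libraries had the same order but for Irgm1 (median 23.4 TPM) above Gbp2 (20.9 TPM). In transgenic libraries Igtp led at a median of 73.3 TPM, Gbp7 was at 44.1 TPM, and Iigp1 (9.61 TPM) stood above Gbp3 (9.34 TPM) and Gbp5 (5.42 TPM). Every library held transcripts of all 10 genes, while Iigp1 was under 1 TPM in 5 controls and in the 5 knockout-labelled libraries.

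**Figure D2:**
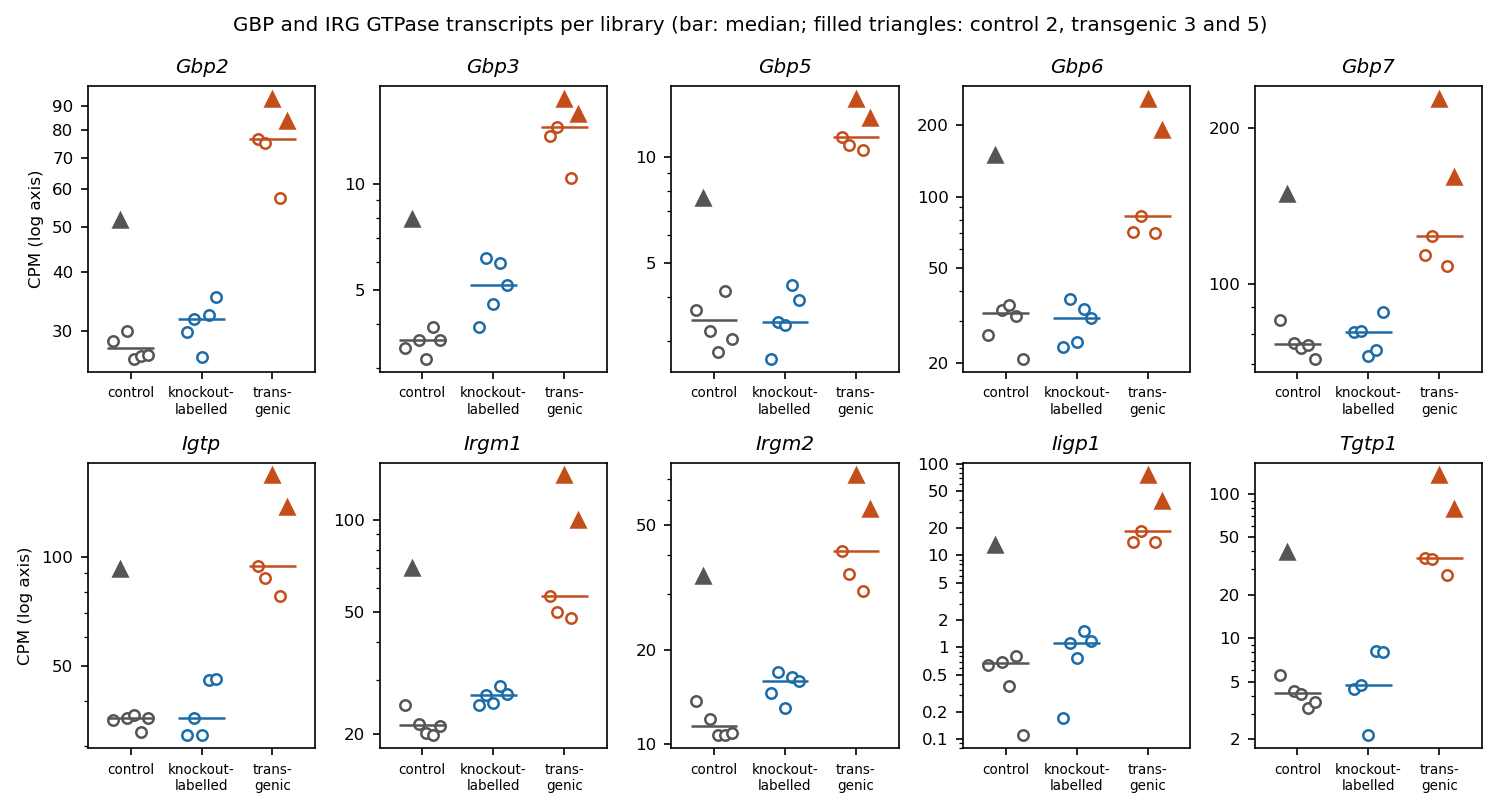
Level of each member in each library, in CPM on a log axis, by group (6 control, 5 knockout-labelled, 5 transgenic libraries; bar, median of the group). Filled triangles are control replicate 2 and transgenic replicates 3 and 5. Control replicate 2 is the highest control in all 10 panels.

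In transgenic libraries all 10 members were at higher levels than in the knockout-labelled libraries, with no overlap of the groups for any of them, and higher than in 5 of the 6 controls. The fitted log2 differences from controls lay between 0.69 (Gbp7) and 3.72 (Iigp1), with a median of 1.45 beside 0.03 over all genes tested. Those from the knockout-labelled group lay between 0.93 (Gbp7) and 5.52 (Iigp1), with a median of 1.68 beside 0.00036 over all genes. All 10 were called higher in the edgeR fit over all genes in both comparisons, where 23.0% and 1.07% of the tested genes were called higher, out of 38.6% and 1.17% called in either direction. Nothing is read from these counts, because the members were picked with both comparisons in view. The knockout-labelled and control groups overlapped for all 10 members and none was called, where 26.4% of genes were called, 16.4% higher, and 8.77% of genes had knockout-labelled values wholly above the controls. The transgenic group was clear of all 6 controls for Gbp2, Gbp3, Gbp5 and Iigp1, which is 4 of 10, and 13.7% of all genes had transgenic values wholly above the controls. Against the knockout-labelled values the members' transgenic values were clear for 10 of 10, and 2.33% of all genes were wholly higher. In that comparison leaving out 1 library at a time left 6 to 10 members called, 6 of them without transgenic replicate 3, and the calls of Gbp6, Gbp7 and Irgm1 were the ones most often lost.

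**Figure D3:**
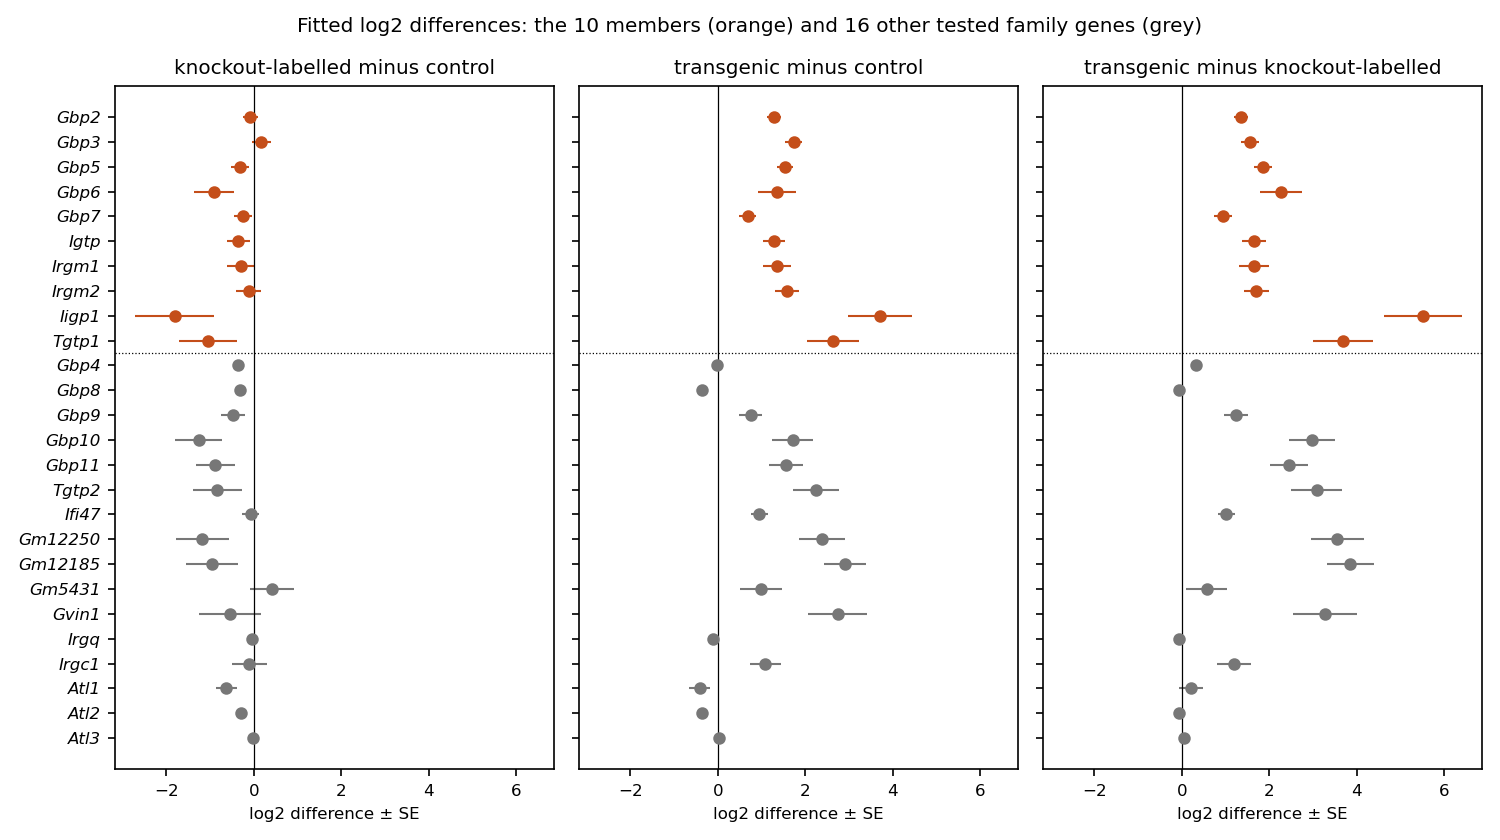
Fitted log2 differences with their standard errors (bars) for the 10 members (orange) and the 16 other tested family genes (grey, under the dotted line) in 3 comparisons of groups. The members lie right of 0 in both comparisons of the transgenic group, from 0.69 to 5.52, and from -1.80 to 0.17 in the comparison of knockout-labelled with control libraries.

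Gbp2, which coats pathogen vacuoles and opens them to inflammasome sensors, was at 26.2 (lowest), 27.7 (median) and 51.7 CPM (highest) in the 6 controls. The knockout-labelled replicates 1 to 5 had 30.0, 31.8, 26.5, 32.4 and 35.4 CPM, and the transgenic replicates 1 to 5 had 76.6, 75.2, 93.2, 57.4 and 83.9 CPM. Every transgenic library was above every other library. The transgenic level was higher by 1.28 on the log2 scale (SE 0.16) than in controls and by 1.35 (SE 0.17) than in the knockout-labelled group.

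Gbp3 was at 3.18, 3.59 and 7.96 CPM (lowest, median, highest) in controls. It was at 3.90, 6.13, 4.55, 5.97 and 5.13 CPM in the knockout-labelled and at 13.7, 14.5, 17.4, 10.4 and 15.8 CPM in the transgenic replicates, again with all transgenic libraries above all others (log2 difference from controls 1.73, SE 0.20). Gbp3 was the member whose knockout-labelled value was above that of controls (0.17, SE 0.21), and the 2 groups overlapped. Gbp5, known for promoting assembly of the NLRP3 inflammasome, was at 2.79, 3.44 and 7.62 CPM in controls. Its values were 2.67, 3.41, 3.34, 4.32 and 3.91 CPM in the knockout-labelled and 11.4, 10.8, 14.6, 10.4 and 12.9 CPM in the transgenic replicates (log2 difference from controls 1.53, SE 0.19). For Gbp2, Gbp3 and Gbp5 the highest transgenic library (replicate 3) was 1.34, 1.36 and 1.34 times the mean of transgenic replicates 1, 2 and 4, the lowest such ratios among the 10 members.

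Gbp6 showed a wider spread. Controls had 20.7, 32.4 and 148.8 CPM (lowest, median, highest), the knockout-labelled replicates 23.3, 37.1, 24.3, 33.7 and 30.9 CPM, and the transgenic replicates 70.9, 82.8, 257.3, 70.1 and 189.8 CPM. Control replicate 2 was above transgenic replicates 1, 2 and 4 and below 3 and 5, so the groups overlapped (log2 difference 1.36, SE 0.44). Gbp6 held 87.7% to 97.4% of the summed level of Gbp6 and its near-copies Gbp10 and Gm43302, and the sum was 51.6 ± 50.9 CPM in controls (n = 6), 30.9 ± 6.10 CPM in knockout-labelled (n = 5) and 144.7 ± 91.6 CPM in transgenic libraries (n = 5). Gbp7, which supports delivery of antimicrobial cargo to vacuoles, ranged from 71.6 to 148.7 CPM over the controls, from 72.3 to 88.1 CPM over the knockout-labelled and from 108.1 to 227.4 CPM over the transgenic libraries. Its difference from controls was the smallest of the 10 (0.69, SE 0.19).

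The regulatory IRGs were higher by similar amounts. Irgm1, which protects lymphocytes and macrophages from harm by the effector IRGs and supports autophagy, was at 19.8, 21.4 and 69.6 CPM in controls (lowest, median, highest). It was at 24.9, 26.8, 25.2, 28.7 and 26.9 CPM in the knockout-labelled and at 56.6, 49.99, 140.1, 48.0 and 100.4 CPM in the transgenic replicates. The log2 difference from controls was 1.36 (SE 0.32), and control replicate 2 lay among the transgenic values. Igtp was at 32.9, 35.8 and 92.3 CPM in controls, 32.1, 35.8, 32.1, 45.6 and 45.8 CPM in the knockout-labelled and 94.2, 87.6, 167.7, 77.7 and 136.9 CPM in the transgenic replicates (1.29, SE 0.25). Irgm2 values lay between 10.6 and 34.4 CPM in controls, between 12.98 and 16.9 CPM in the knockout-labelled group and between 30.8 and 72.0 CPM in the transgenic group (1.59, SE 0.27). For all 3 the transgenic libraries were above every knockout-labelled library, by 1.65 (SE 0.34) for Irgm1, 1.65 (SE 0.27) for Igtp and 1.71 (SE 0.29) for Irgm2 on the log2 scale.

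The effector IRGs showed the widest differences. Iigp1 (Irga6), among the first IRGs to load onto parasite vacuoles, was at 0.110, 0.669 and 13.1 CPM in controls (lowest, median, highest). The knockout-labelled replicates had 0.170, 1.11, 0.766, 1.51 and 1.18 CPM and the transgenic replicates 14.1, 18.7, 74.3, 13.9 and 39.3 CPM. All transgenic libraries were above all others, though the lowest exceeded control replicate 2 by a factor of only 1.06. The log2 difference was 3.72 (SE 0.74) from controls and 5.52 (SE 0.89) from the knockout-labelled group. Tgtp1 (Irgb6), which binds vacuole lipids early, was at 3.26, 4.20 and 39.6 CPM in controls, 4.46, 4.73, 2.12, 8.18 and 7.997 CPM in the knockout-labelled and 36.2, 35.2, 134.7, 27.3 and 78.7 CPM in the transgenic replicates (2.64, SE 0.60, from controls). Tgtp1 made up 17.4% to 39.5% of the summed level of Tgtp1 and Tgtp2. For this sum the level was 33.9 ± 46.1 CPM in controls (n = 6), 19.9 ± 6.42 CPM in knockout-labelled (n = 5) and 171.3 ± 106.6 CPM in transgenic libraries (n = 5), with transgenic replicates above 5 of the 6 controls in the sum as in Tgtp1 alone.

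Much of the spread inside the groups came with the 3 libraries that stood apart. Control replicate 2 was the highest control for all 10 members, transgenic replicate 3 the highest of all 16 libraries for all 10, and transgenic replicate 5 the second highest for all 10. Relative to the mean of the other 5 controls, control replicate 2 had 1.87 times the Gbp2 level, 1.93 times the Gbp7 level, 5.07 times the Gbp6 level, 9.51 times the Tgtp1 level and 24.9 times the Iigp1 level. Its Ifit1 level was 19.1 times theirs. Without these 3 libraries all 10 members had transgenic values above every remaining control, the 6 that overlapped before through the removal of control replicate 2, and 19.4% of all genes met the same condition. All 10 were called higher, with log2 differences between 0.55 (Gbp7, SE 0.07) and 4.94 (Iigp1, SE 0.42) and a median of 1.46, where 28.8% of genes were called in either direction. Against the knockout-labelled group the median was then 1.27 (range 0.53 to 4.35), and 10 of 10 were called beside 0.801% of all genes. The knockout-labelled values then had a median of 0.21 above the controls, with 3 members called higher (Gbp3, Irgm1 and Irgm2), where 15.0% of genes were called. Leaving out control replicate 2 alone turned that median from -0.31 to 0.11, so the lower knockout-labelled values rest on 1 control library.

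**Figure D4:**
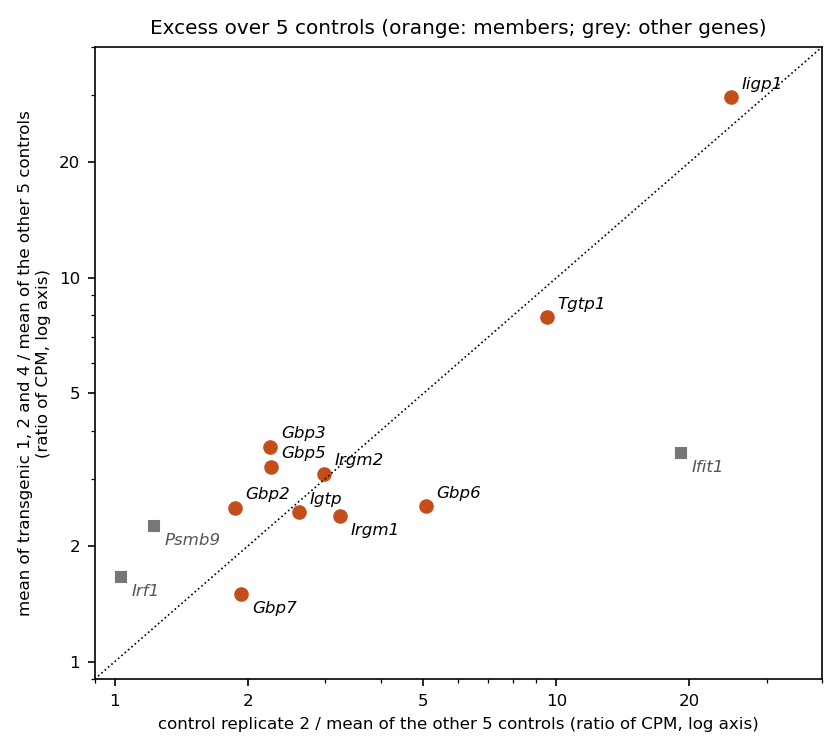
Ratio of control replicate 2 (horizontal) and of the mean of transgenic replicates 1, 2 and 4 (vertical) to the mean of the other 5 controls, for the 10 members (orange) and 3 other genes (grey), on log axes; the dotted line marks equal ratios. Of the members, Iigp1 and Tgtp1 are highest on both axes; Ifit1 is far right of the line, and Psmb9 and Irf1 lie above it.

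Transgenic replicates 1, 2 and 4 were set beside control replicate 2 for the same genes. They were above the other 5 controls for 10 of 10 members, as were 19.4% of all genes, with mean ratios of 1.496 (Gbp7), 2.40 (Irgm1), 2.45 (Igtp), 2.52 (Gbp2), 2.54 (Gbp6), 3.09 (Irgm2), 3.22 (Gbp5), 3.63 (Gbp3), 7.90 (Tgtp1) and 29.6 (Iigp1). For Gbp2, Gbp3, Gbp5 and Iigp1 all 3 were above control replicate 2 as well; for the other 6 they were not. Genes outside the family were ordered differently. Ifit1 was 3.50 times the control level in transgenic replicates 1, 2 and 4 and 19.1 times in control replicate 2, whereas Psmb9, an immunoproteasome subunit, was 2.26 and 1.23 times, and Irf1 1.66 and 1.03 times. Psmb9, Irf1 and Ifit1 were set beside the members here after their values were seen. Ratios of 1 library and of 3 libraries carry no test.

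**Figure D5:**
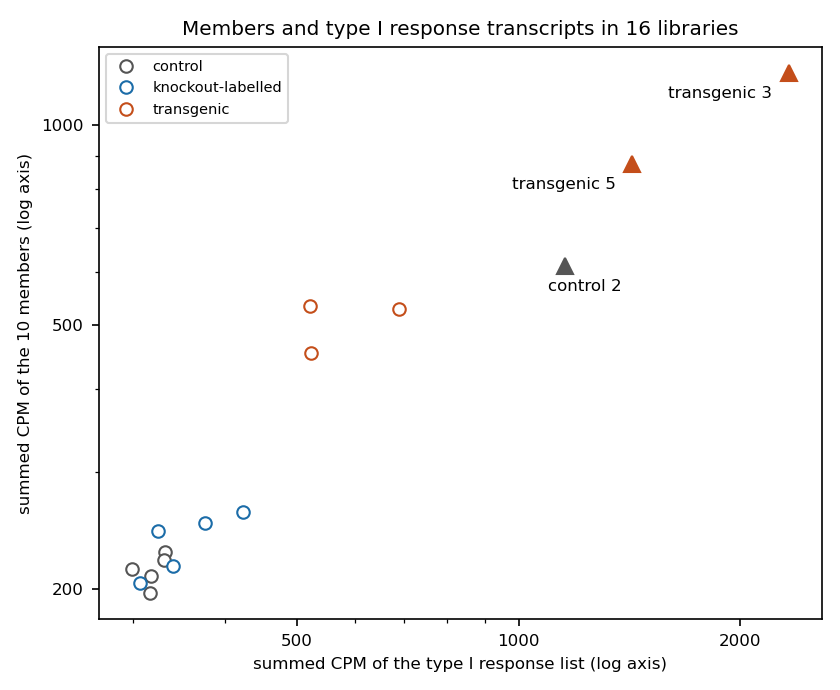
Summed CPM of the 10 members (vertical) against summed CPM of the 26 genes of the type I response list (horizontal) in 16 libraries, both on log axes; filled triangles are control replicate 2 and transgenic replicates 3 and 5. Those 3 libraries are at 614.0 to 1199 CPM of members, transgenic replicates 1, 2 and 4 at 454.1 to 533.3, and the other 10 libraries at 197.1 to 261.3 CPM.

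Inside the groups the members went up and down together. As deviations from group means of log2 CPM, each member's Pearson r with the mean of the other 9 was 0.89 (Gbp5) to 0.97 (Irgm2) over 16 libraries, and 0.48 (Gbp7) to 0.80 (Gbp2) over the 13 libraries without the 3 that stood apart. Over the 45 pairs of members the median r was 0.90 with all libraries and 0.44 with 13. The points share libraries and scaling, and these values are descriptive. Among 12625 other genes averaging 1 CPM or more, those whose deviations were most like the members' mean included Ifit1bl1 (r = 0.98), Ifit1 (0.96), Cmpk2 (0.95), Bst2 (0.95), Mx2 (0.95), Slfn1 (0.95) and Rtp4 (0.95), with r of 0.91, 0.78, 0.72, 0.76, 0.74, 0.68 and 0.72 over 13 libraries. Mean levels of Ifit1bl1 were 2.75, 0.861 and 14.6 CPM in control, knockout-labelled and transgenic libraries.

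Among the controls, females had 17955743 to 18888169 counts per library and males 25052921 to 26586220. Sex and library total cannot be told apart in that group. Sex was not used to choose the members, so it could be tested. All 10 had fitted male values above female ones, by 0.23 (Gbp2) to 2.05 (Iigp1) on the log2 scale, with a median of 0.54. None passed the threshold (edgeR adjusted p between 0.357 and 0.589), while 7 had an unadjusted p under 0.05, and 0.141% of all genes were called, 0.0603% higher in males. DESeq2 called 1 member, Iigp1. The 3 libraries that stood apart were all male: without them the median fell to 0.08, no member was called, and none had an unadjusted p under 0.05. A group by sex term, fitted on controls and transgenic libraries, was called for 0 of 10 members (edgeR adjusted p between 0.661 and 0.996; no unadjusted p under 0.05), where 0.0278% of genes were called. Within the transgenic group Nfkbid itself was highest in the 2 females (309.6 and 239.0 CPM) and lowest in replicate 3 (114.7 CPM), the library with the highest level of all 10 members.

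The rest of the family gave a mixed picture. Of 20 further family genes in the annotation 16 passed the filter, and Gbp2b, Gm4841, Gm4951 and F830016B08Rik did not. Against controls, 9 of the 16 were higher in transgenic libraries (Gbp9, Gbp10, Gbp11, Tgtp2, Ifi47, Gm12250, Gm12185, Gvin1 and Irgc1) and 2 lower (Gbp8 and Atl2), with a median log2 difference of 0.97. Of all genes tested, 23.0% were called higher and 15.6% lower. Gm12185, whose span overlaps that of Tgtp1 on the same strand, rose by 2.90 (SE 0.48, edgeR adjusted p = 0.000324), Gm12250 (Irgb10), an IRG that attacks bacterial membranes, by 2.38 (SE 0.53, adjusted p = 0.00344), and Tgtp2 by 2.25 (SE 0.53, adjusted p = 0.00518). Ifi47 (Irgd) rose by 0.95 (SE 0.19, edgeR adjusted p = 0.00167). Gbp10 rose by 1.71 (SE 0.47, edgeR adjusted p = 0.0102), Gbp11 by 1.56 (SE 0.39, adjusted p = 0.00525) and Gvin1 by 2.74 (SE 0.67, adjusted p = 0.00628); 99.2% of the transcript windows of Gvin1 occur in other genes. The 2 others were Gbp9 (0.75, SE 0.27, edgeR adjusted p = 0.0397), which lost its call without any of 13 single libraries, and Irgc1 (1.09, SE 0.36, adjusted p = 0.0230), an IRG of the testis that was at no more than 1.85 CPM anywhere and lost it without any of 5. Against the knockout-labelled group 6 of the 16 were higher (Gbp10, Gbp11, Gm12185, Gm12250, Ifi47 and Tgtp2) and 0 lower, with 10 at an unadjusted p under 0.05. Of all genes tested, 1.07% were called higher in that comparison. The calls of Tgtp2 and Ifi47 there were lost without any of 5 and any of 6 single libraries.

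Gbp4 and Gbp8, neighbours of Gbp6 in the chromosome 5 cluster, did not share the pattern. Gbp4 was at 228.0 ± 27.3 CPM in controls (n = 6) and 227.3 ± 34.9 CPM in transgenic libraries (n = 5), a log2 difference of -0.02 (SE 0.09, edgeR adjusted p = 0.894), and it fell by 0.35 in knockout-labelled libraries (183.0 ± 7.75 CPM, SE 0.09, edgeR adjusted p = 0.00905), where the groups did not overlap. Gbp8 fell by 0.37 in transgenic libraries (SE 0.10, edgeR adjusted p = 0.00938) and by 0.31 in knockout-labelled ones (SE 0.10, adjusted p = 0.0366). The second of these calls was lost without any of 6 single libraries. Both comparisons use the same controls. In GENCODE the spans of Gbp4, Gbp8 and Gbp9 overlap, so their reads could not be fully told apart at the gene level. Irgq was at -0.11 (SE 0.06, edgeR adjusted p = 0.203), Gm5431 at 0.98 (SE 0.48, adjusted p = 0.114), and the atlastins, related membrane-fusing GTPases, at -0.41 (Atl1, SE 0.24, adjusted p = 0.190), -0.37 (Atl2, SE 0.09, adjusted p = 0.00364) and 0.02 (Atl3, SE 0.06, adjusted p = 0.798) in transgenic against control libraries. Atl2 also fell by 0.30 in knockout-labelled libraries (SE 0.09, edgeR adjusted p = 0.0196). Its calls there were lost without control replicate 3 and without knockout replicate 1.

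The signalling chain upstream of the GTPases was examined from ligand to target. Transcripts of interferons themselves were next to nothing: of 9 ligand genes, 7 had a count of 0 in every library, Ifng had at most 3 counts and Ifnk at most 4, so none could be tested. A count of 0 in these sorted cells says nothing of interferon made by other cells. Counts of list genes called against controls stand beside 23.0% of all genes called higher and 15.6% called lower. Of 5 receptor genes tested, 2 were higher in transgenic than in control libraries, Ifnar2 by 0.29 (SE 0.08, edgeR adjusted p = 0.00622) and Il10rb by 0.22 (SE 0.08, adjusted p = 0.0370). The call of Il10rb was lost without any of 12 single libraries. Against the knockout-labelled group neither was called (Ifnar2 0.08, SE 0.08, edgeR adjusted p = 0.880, and Il10rb 0.20, SE 0.08, adjusted p = 0.420). Among the transducers, Irf9 was at 0.81 (SE 0.32, edgeR adjusted p = 0.0641), which did not pass the threshold. Among IRF and NLR transactivators 4 of 5 were higher than in controls. Irf1, the factor that many GBP promoters depend on, rose from 77.2 ± 13.3 CPM (n = 6) to 128.5 ± 7.04 CPM (n = 5; 0.75, SE 0.09, edgeR adjusted p = 3.1e-05), and Irf8 from 7.66 ± 1.53 to 18.01 ± 1.79 CPM (1.22, SE 0.17, edgeR adjusted p = 0.000113). Irf1 was also higher than in the knockout-labelled group, by 0.62 (SE 0.10, edgeR adjusted p = 0.00187). That call was lost without the 3 interferon-high libraries (0.54). It was also lost without 4 libraries named class II-high (0.49), control replicate 1 and knockout-labelled replicates 1 to 3. That name was given to control and knockout-labelled libraries only, and no transgenic library was left out with them. H2-Ab1, a class II gene, was at 7.92 to 15.5 CPM in transgenic libraries and at most 3.94 CPM in controls.

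Of 7 genes for inhibitors of the pathway 2 were called higher than in controls, near the 23.0% of all genes, Socs3 by 0.88 (SE 0.15, edgeR adjusted p = 0.000319) and Ptpn1 by 0.18 (SE 0.06, adjusted p = 0.0184). Ptpn1 lost its call without any of 8 single libraries. Against the knockout-labelled group neither was called (Socs3 0.48, SE 0.16, edgeR adjusted p = 0.202, and Ptpn1 0.09, SE 0.06, adjusted p = 0.762). The ATG8 conjugation machinery, which directs the GTPases to vacuoles, had 2 of 10 genes higher and 2 lower, near the shares of all genes (23.0% and 15.6%): Atg16l1 fell by 0.32 (SE 0.05, edgeR adjusted p = 8.3e-05) and Map1lc3b by 0.20 (SE 0.04, adjusted p = 0.00199). Both were also lower in knockout-labelled than in control libraries, by 0.31 for Atg16l1 (SE 0.05, edgeR adjusted p = 0.000472) and 0.17 for Map1lc3b (SE 0.05, adjusted p = 0.0124), and the differences between transgenic and knockout-labelled libraries were -0.01 (SE 0.05) and -0.03 (SE 0.05). Of 5 inflammasome genes tested, Casp1 and Casp4 were higher in transgenic than in control libraries, at 0.901 ± 0.397 and 0.630 ± 0.164 CPM (n = 5) against 0.106 ± 0.064 and 0.0866 ± 0.0649 CPM (n = 6); the log2 differences were 2.93 (SE 0.57, edgeR adjusted p = 0.000846) and 2.74 (SE 0.46, edgeR adjusted p = 0.000304). Of 7 genes that attach lipid anchors or bind prenylated GTPases, 2 were higher and 1 lower. Fntb was among the higher (0.34, SE 0.07, edgeR adjusted p = 0.00138). It was also called higher in knockout-labelled than in control libraries (0.21, SE 0.07, edgeR adjusted p = 0.0432), a call lost without any of 14 single libraries. Between transgenic and knockout-labelled libraries Fntb was not called (0.13, SE 0.07, edgeR adjusted p = 0.653).

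Downstream lists of other interferon targets were counted in the same way. In transgenic against control libraries 14 of 25 type I response genes were higher and 0 lower (median 1.52), and 10 of 10 class I presentation genes were higher (median 0.77), beside 23.0% of all genes. Against the knockout-labelled group these counts were 3 of 25 (median 2.49) and 9 of 10 (median 0.76), beside 1.07%. Zbp1, a nucleic acid sensor, rose by 0.99 against controls (SE 0.26, edgeR adjusted p = 0.0104) and Ifit2 by 0.40 (SE 0.11, adjusted p = 0.0109). The immunoproteasome subunits Psmb9 and Psmb8 rose by 1.16 (SE 0.07, edgeR adjusted p = 7.7e-08) and 0.53 (SE 0.05, adjusted p = 8.4e-06). Psmb9 was at 28.3 ± 2.82 CPM in controls (n = 6) and 63.2 ± 4.58 CPM in transgenic libraries (n = 5), without overlap; control replicate 2, at 33.5 CPM, was above the other controls (25.5 to 28.5 CPM) and below every transgenic library. Over the lists from receptors to type I response genes, without class I presentation, 71 genes were tested: 29 were higher and 3 lower against controls, 8 and 0 against the knockout-labelled group, and 3 and 5 in knockout-labelled against control libraries.

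Marker sums of other cell types moved with the transgenic group in some lists and not in others. The 12 macrophage and monocyte markers summed to 23.8 to 32.0 CPM in transgenic, 13.4 to 21.5 CPM in control and 12.8 to 22.3 CPM in knockout-labelled libraries, with 4 of the 12 above a mean of 1 CPM. Csf1r was at 1.69 to 2.71 CPM in transgenic libraries, against 0.0548 to 0.995 CPM in controls and 0 to 1.15 CPM in knockout-labelled ones. The transgenic values of Itgam (9.47 to 13.2 CPM) and Cd68 (2.65 to 3.38 CPM) overlapped with those of both other groups. The 11 dendritic cell markers, which include Bst2 of the type I list and class II genes, summed to 54.6 to 122.0, 8.87 to 38.6 and 16.6 to 86.8 CPM, with 7 of 11 above a mean of 1 CPM. The 10 markers of NK, innate lymphoid and gamma-delta cells had 6 genes above a mean of 1 CPM. They summed to 823.4 to 943.8 CPM in transgenic, 520.1 to 712.1 CPM in control and 690.5 to 751.2 CPM in knockout-labelled libraries. Most of this sum was Trdc, at 584.3 to 696.4, 417.9 to 618.8 and 365.4 to 574.0 CPM in the same order. Gzma followed, at 183.2 to 271.0, 83.6 to 131.1 and 109.85 to 365.3 CPM. The transgenic values of Klrb1c, Ncr1, Klrk1 and Zbtb16 overlapped with those of both other groups. B cell markers (10 genes, 5 above 1 CPM) summed to 14.1 to 45.8, 7.77 to 15.7 and 9.01 to 19.0 CPM, with overlap. Double-positive thymocyte markers summed to 5857 to 6523 CPM in transgenic libraries, against 7550 to 8583 CPM in 5 controls, 5791 CPM in control replicate 6 and 6073 to 7529 CPM in knockout-labelled libraries. Plasma cell markers (6 genes, 4 above 1 CPM) summed to 96.7 to 178.2, 55.9 to 68.1 and 59.5 to 98.7 CPM. Igkc was at 27.6 to 88.0 CPM and Jchain at 3.71 to 17.6 CPM in transgenic libraries, against at most 2.64 and 0.919 CPM in the others. Mzb1 was also higher there, while Xbp1, Sdc1 and Prdm1 overlapped with both other groups. Knockout-labelled replicates 1 to 3 had dendritic cell marker sums of 75.0, 74.3 and 86.8 CPM, within the transgenic range, and member sums of 216.7, 244.7 and 204.2 CPM, near those of 5 controls (197.1 to 227.1 CPM). Control replicate 2 had member levels at 614.0 CPM. Its macrophage markers were at 18.6 CPM, inside the control range. Its dendritic cell markers were at 38.6 CPM, the highest of the controls, and 31.9 CPM of that was Bst2 of the type I list. Thymic epithelial markers were higher through Ly75 (54.3 to 64.4 CPM in transgenic, 21.5 to 37.2 CPM in the others), while Foxn1 was at most 0.0842 CPM. Endothelium and stroma markers (7 genes) summed to 200.7 to 215.1 CPM in transgenic, 200.5 to 221.1 in control and 208.3 to 231.1 in knockout-labelled libraries. Erythroid markers (5 genes) summed to 10.4 to 66.8, 7.25 to 130.8 and 5.26 to 62.4 CPM, also with overlap. Granulocyte markers were at no more than 0.498 CPM, with Elane and Ly6g at a count of 0 throughout. The part of other cells in the GTPase levels was not tested, and in bulk libraries a larger share of a cell type and more RNA per cell cannot be told apart.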

How the data were processed

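Bulk RNA was sequenced from sorted thymocytes of 16 mice. Per the submitters' processing notes, the tools included Bowtie 1.0.0, SAMtools 0.1.18 and edgeR 3.24.3 with the build GRCm38 (mm10), and no source used here names the counting program. Each library's deposited table holds, per Ensembl gene, estimated counts (58.7% of positive values whole within 1e-06) and TPM as the authors computed them, and each TPM column summed to 1000000. Symbols from GENCODE M21 matched 46005 of 46517 identifiers; the rest held 0.171% of counts.

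Estimated counts were rounded and fitted with edgeR 4.0.16 in R 4.3.3: filterByExpr by group, TMM scaling, robust glmQLFit with group and sex over 16 libraries, and Benjamini-Hochberg adjustment over 14933 genes at 0.05. SE is the log2 difference divided by the square root of F. The sex difference was a group by sex term in controls and transgenic libraries (14385 genes). Group contrasts of members carry no p. Every library is a separate mouse, and libraries within groups differed beyond sampling noise (chi-square per degree of freedom 4.55 to 79.9). Count precision rests on 17955743 to 35637813 counts per library.

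The members and the gene lists were chosen with earlier results of these data known. Genes named from each list were the 2 tested genes with the smallest p in transgenic against control libraries; a few of the genes so chosen are not reported here. DESeq2 1.42.0, limma-voom (limma 3.58.1), other scalings and filters, males alone, a replicate block and left-out libraries were tried. The fit was tested on simulated data.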

Additional observations from a re-analysis of the deposited data

Results flagged for a closer look

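Control replicate 2, a male, stood apart from the other 5 controls for all 10 members: its gap to the nearest control exceeded the 95% limit of Dixon's test for 6 samples. Its levels were 51.7 CPM for Gbp2, 7.96 for Gbp3, 7.62 for Gbp5, 149 for Gbp6, 149 for Gbp7, 92.3 for Igtp, 69.6 for Irgm1, 34.4 for Irgm2, 13.1 for Iigp1 and 39.6 CPM for Tgtp1. In all, 30 groups of values were tested (10 genes in 3 groups), and chance flags about 1 in 20; the 10 flags are not independent, because they come from 1 library. Ifit1 was 67.1 CPM in the same library. No group of knockout-labelled or transgenic values was flagged.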

How the results depend on the processing

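Members called higher in transgenic than in control libraries stayed between 8 and 10 of 10 in every setting but males only (3), and leaving out 1 library at a time gave 9 to 10. Against the knockout-labelled group, 10 were called in the main analysis, 4 with a replicate block, 6 with no sex term, 2 in males only and 3 without control replicate 1 and knockout replicates 1 to 3, the 4 class II-high libraries; leaving out 1 library gave 6 to 10. Males only and these 4 left-out libraries also leave fewer samples. The 4 include no transgenic library, though H2-Ab1 was higher in every transgenic library than in any control. The same replicate numbers do not pair the libraries: 15 same-numbered pairs had correlations of -0.088 to 0.273, 1 above 0.1, so the block carries no pairing from the design. In knockout-labelled against control libraries 0 members were called (edgeR; 0 at an unadjusted p under 0.05; DESeq2 0), 0 to 1 with 1 library left out and 3 without the 3 interferon-high libraries. DESeq2 called 1 member for sex; leaving out 1 library gave 0 to 0 for sex and for the sex difference.

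Of the other family genes, 3 were called in knockout-labelled against control libraries, with 1 each in males only, without the interferon-high and without the class II-high libraries (1 to 4 with 1 library left out). Against controls 11 transgenic calls became 2 in males only (9 to 11), and against knockout-labelled libraries 6 became 2 with the replicate block, 0 in males only and 0 without the class II-high libraries (4 to 9). For the pooled lists, 8 calls in knockout-labelled against control libraries became 5 with limma-voom, no filter and males only and 3 without the class II-high libraries (3 to 9). The 32 transgenic calls against controls became 20 with no filter, 18 with only the groups compared, 20 with the replicate block, 12 in males only and 17 without the class II-high libraries (20 to 40). The 8 against the knockout-labelled group became 32 with DESeq2, 5 with the stricter filter, 23 without robust fitting, 5 with only the groups compared, 4 with the block, 5 with no sex term, 3 in males only, 13 without the interferon-high and 5 without the class II-high libraries (4 to 25). The cause of these changes was not tested.

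Single genes changed sign as follows, in log2. In knockout-labelled against control libraries without the interferon-high ones, Tgtp2 was 0.30, Ifi47 0.21, Gm12250 0.10, Gvin1 0.26 and Gm12185 0.0788. Without the class II-high libraries Irgc1 was 0.56, Gvin1 0.00542 and Gm5431 -0.39 there, and Gbp8 0.0861 and Atl2 0.0518 in transgenic against knockout-labelled libraries. Irgc1 was 0.0725 with limma-voom and 0.0741 with the replicate block. In males only Irgq was 0.0148, 0.0325 and 0.01775 in the 3 comparisons, Atl1 -0.02 and Atl3 -0.0112 in transgenic against knockout-labelled libraries. Atl3 against controls was -0.01265 with DESeq2, -0.0125 with RLE size factors, -0.00563 with no filter, -0.01415 with the stricter filter, -0.01065 with only the groups compared and -0.0909 in males only. Nfkbid in knockout-labelled against control libraries was -0.00857 with only the groups compared and -0.0484 with no sex term. With 1 library left out, knockout-labelled against control values ranged from -0.0811 to 0.00987 for Atl3, -1.46 to 0.31 for Gvin1, -0.21 to 0.15 for Ifi47, -0.28 to 0.29 for Irgc1, -0.0533 to 0.14 for Nfkbid and -1.14 to 0.17 for Tgtp2; transgenic against control values from -0.0564 to 0.0476 for Atl3 and -0.0860 to 0.0292 for Gbp4; and Gbp8 against knockout-labelled from -0.11 to 0.00427. The cause was not tested. Depth limits Casp1, Casp4, Gm5431, Gm12185, Irgc1 and Atl1, where few counts lie behind a value in control and knockout-labelled libraries.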
